A study of Homo sapiens with 9 samples.

Results

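The IFIT and IFITM families are small groups of antiviral genes that interferon switches on. Here they comprise 7 genes, the 4 IFIT genes IFIT1, IFIT2, IFIT3 and IFIT5 and the 3 IFITM genes IFITM1, IFITM2 and IFITM3, chosen by symbol among the 60605 genes of the deposited table. Each symbol had 1 row, and 7 of 7 were among the 21397 genes that passed a filter on low values (a mean of at least 0.1 FPKM over all libraries). Their levels were measured by RNA-seq in TE13 cells, an established line of esophageal squamous cell carcinoma (ESCC), after PARylator knockdown. PARylator is the long noncoding RNA LINC00885. The 3 conditions were TE13 cells transfected with control siRNA, with PARylator siRNA.1 or with PARylator siRNA.2, with 3 libraries each, described by the submitters as biological replicates. All conditions thus share 1 cell line and an siRNA transfection, there was a single control siRNA, and both knockdown conditions are compared with the same 3 control libraries. The time from transfection to harvest of the RNA is not given in the sources used here.

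IFIT proteins are built from tetratricopeptide repeats and bind foreign RNA in the cytoplasm, which keeps ribosomes from translating it. IFITM proteins sit in the plasma membrane and in endosomes, where they stiffen membranes and keep enveloped viruses from fusing with them. Epithelial cells hold little of most of these transcripts until interferon, or a sensor of foreign nucleic acid, activates transcription factors such as STAT2 with IRF9, or IRF3, which bind a promoter sequence called the interferon-stimulated response element.

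That element was present in each promoter of the 7 genes that could be searched, and it is shown for this reason. RefSeq promoter windows on GRCh38.p14, each with 250 bases before and 50 bases after a transcription start, were available for 5 of the 7 genes in 6 windows, since IFIT3 has 2 starts. IFIT2 and IFITM2 had no window, and the window of the paralog IFIT1B, which is not among the 7 genes, held 0 matches. The search was for GAAANNGAAA on either strand, which reads TTTCNNTTTC on the other. All 6 windows held it, with 3 matches at IFIT5 and 2 in each of the others, 13 in all. Among all 35116 windows of the table, 3.57% held at least 1 match and 0.259% at least 2. The stretches around the matches follow in the direction of transcription, 5′ to 3′, with the matches in capitals.
IFIT1 (chr10:89392487-89392549, plus strand): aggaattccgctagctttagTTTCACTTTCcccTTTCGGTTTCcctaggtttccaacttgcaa
IFIT3, upstream start (chr10:89327821-89327904, plus strand): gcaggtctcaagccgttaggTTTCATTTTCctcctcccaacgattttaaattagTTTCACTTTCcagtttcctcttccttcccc
IFIT3, downstream start (chr10:89332415-89332507, plus strand): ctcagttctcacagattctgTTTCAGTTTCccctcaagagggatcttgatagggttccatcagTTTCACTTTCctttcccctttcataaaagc
IFIT5 (chr10:89414503-89414573, plus strand): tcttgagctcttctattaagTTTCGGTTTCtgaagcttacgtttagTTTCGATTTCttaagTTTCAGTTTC
IFITM1 (chr11:313980-314043, plus strand): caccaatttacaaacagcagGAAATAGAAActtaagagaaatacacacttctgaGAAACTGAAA
IFITM3 (chr11:320866-320932, minus strand): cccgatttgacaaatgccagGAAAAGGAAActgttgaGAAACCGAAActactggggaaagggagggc
In the IFIT genes all matches read in the TTTC direction, and in the IFITM genes they read in the GAAA direction. At IFIT1 the matches lay between 116 and 94 bases before the start. At IFIT5 and IFITM1 the nearest match ran across the start itself. A match describes the letters of the reference sequence and does not show that a factor was bound in these cells.

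Total counts on genes lay between 15337917 and 17899074 in the control libraries, between 15374616 and 17762752 with siRNA.1 and between 19213164 and 22559998 with siRNA.2. No pair of libraries within a condition agreed within sampling noise (chi-square over its degrees of freedom from 2.73 to 4.46), so each stood for 1 sample. The targeted gene was near the limit of this depth, with 6, 7 and 12 counts of LINC00885 in the control libraries, 4, 5 and 2 with siRNA.1 and 2, 0 and 4 with siRNA.2. TE13 cells are labelled as epithelial carcinoma cells, and 9 of 9 markers of squamous epithelium averaged at least 1 FPKM in every condition, with sums from 665.8 to 679 FPKM with control siRNA, from 588.1 to 614 FPKM with siRNA.1 and from 575.1 to 594.5 FPKM with siRNA.2. Within these sums KRT5 averaged 142.5, 39.97 and 55.82 FPKM in the 3 conditions, KRT6A averaged 78.7, 101.8 and 118.2 FPKM, and EPCAM averaged 99.03, 136.8 and 136.2 FPKM. The mitochondrial share of counts ranged from 7.46% to 7.66% in control libraries, from 4.99% to 5.06% under siRNA.1 and from 5.54% to 5.56% under siRNA.2, and its part in the results was not tested.

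All 7 genes were higher after PARylator knockdown with either siRNA. Their counts summed to between 898 and 946 CPM (counts scaled to a common library total) with control siRNA, between 2909 and 2957 with siRNA.1 and between 2579 and 2631 with siRNA.2. The quasi-likelihood test of edgeR, fitted once to all 9 libraries, gave the log2 fold changes, and its p-values were adjusted over all 21397 genes. With siRNA.1, 7 of 7 genes rose, against 15.0% of all genes tested that rose and 15.2% that fell. With siRNA.2, 7 of 7 rose, against 15.8% of all genes that rose and 15.1% that fell. Every knockdown library was above every control library for each of the 7 genes, a pattern seen in 20.7% of all genes with siRNA.1 and in 21.1% with siRNA.2. The 7 genes had a median log2 fold change of 1.81 (siRNA.1) and 1.74 (siRNA.2), while for all genes it was -0.00053 and 0.0040. The medians of the IFIT genes were 2.06 and 1.87 and those of the IFITM genes 0.85 and 0.73. In bulk RNA, a higher level per cell and a larger share of cells that hold the transcript cannot be told apart. The markers of blood cells, in which both families are also expressed, moved with the knockdown. The summed level of 10 such markers lay between 5.54 and 6.63 FPKM in the control libraries, between 7.89 and 8.81 with siRNA.1 and between 7.41 and 8.73 with siRNA.2, with LYZ among those that were higher (0.317, 2.79 and 3.08 FPKM on average in the 3 conditions) and LAPTM5 among those that were lower (4.95, 3.00 and 2.40 FPKM). PTPRC, which marks all leukocytes, averaged 0.0333, 0.153 and 0.147 FPKM, and MS4A1 had 0 counts in every library, while CD2 and CD3E had at most 1. Of the 10 markers, 1 averaged 0 in control cells, 2 did so under siRNA.1 and 3 under siRNA.2. These are levels of marker transcripts in an established line, and their part in the results was not tested. The sums of 6 fibroblast markers (2.23 to 2.49, 1.46 to 1.64 and 1.5 to 1.72 FPKM) and of 4 endothelial markers (1.2 to 1.54, 0.63 to 0.89 and 0.42 to 0.55 FPKM) were lower in the knockdown libraries.

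**Figure D1:**
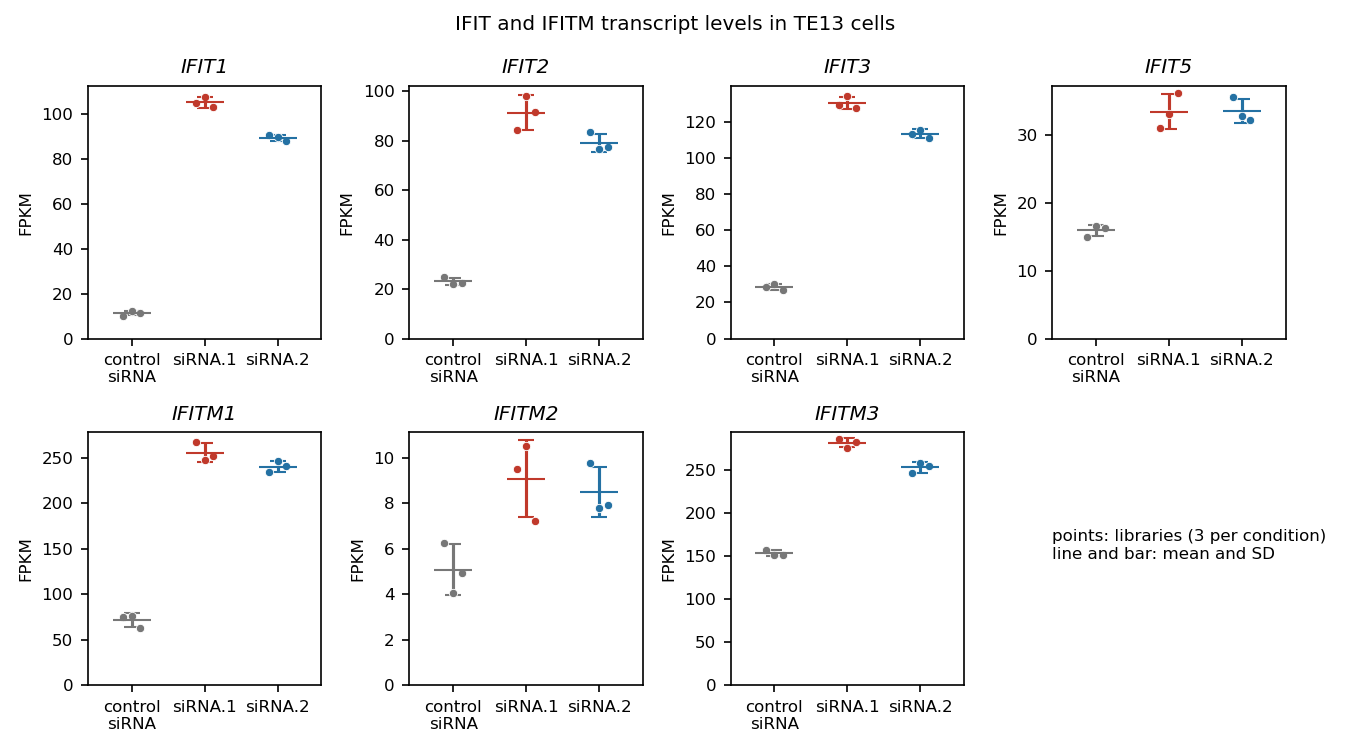
FPKM of each of the 7 genes (vertical axes, each starting at 0) in the 3 libraries of each condition (points), with the mean and SD (line and bar). In every panel all siRNA.1 and siRNA.2 libraries lie above all control libraries, and the siRNA.2 libraries lie below the siRNA.1 libraries for 5 of the 7 genes.

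IFIT1 had the steepest rise. IFIT1 (ENSG00000185745, GRCh38 chromosome 10, 89392546 to 89406487, plus strand) encodes the protein that binds RNA caps lacking ribose methylation, a mark of foreign RNA, and so blocks their translation. Its level was 10.23, 12.29 and 11.36 FPKM in the control libraries (mean 11.3 ± 1.03, SD, n = 3), where FPKM scales a count by exonic length and by the total of the library. It was 104.65, 107.49 and 103.01 FPKM with siRNA.1 (105 ± 2.27) and 90.36, 89.59 and 87.79 FPKM with siRNA.2 (89.2 ± 1.32). The 3 conditions formed separate bands, with siRNA.2 between control siRNA and siRNA.1. The rise was 9.12-fold with siRNA.1 (log2 fold change 3.19, standard error 0.049) and 7.84-fold with siRNA.2 (2.97, standard error 0.049). Among the 12532 genes whose mean reached 1 FPKM, IFIT1 ranked 17 by log2 fold change with siRNA.1 and 24 with siRNA.2. edgeR returned an adjusted p of 0 for both, meaning a value below the smallest number the software stores, and the largest adjusted p over the other filters, scalings and tools reached 9.79e-09 for siRNA.1 and 1.91e-08 for siRNA.2.

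IFIT2 and IFIT3 encode the proteins that assemble with IFIT1 into a complex, in which IFIT3 stabilises IFIT1. IFIT3 (ENSG00000119917, chromosome 10, 89327307 to 89377473, plus strand) was at 28.58, 30.13 and 26.64 FPKM with control siRNA. It was at 129.21, 134.46 and 127.83 FPKM with siRNA.1 and at 113.49, 115.72 and 111.01 FPKM with siRNA.2. IFIT3 too gave 3 separate bands, at means of 28.5 ± 1.75, 131 ± 3.50 and 113 ± 2.36 FPKM (SD, n = 3). The increase was 4.50-fold with siRNA.1 (log2 fold change 2.17, standard error 0.042) and 3.96-fold with siRNA.2 (1.98, standard error 0.042).

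IFIT2 (ENSG00000119922, chromosome 10, 89283694 to 89309271, plus strand), whose protein can also promote cell death when overexpressed, was at 24.85, 22.21 and 22.60 FPKM with control siRNA (23.2 ± 1.43, SD, n = 3). Its libraries read 84.23, 98.09 and 91.74 FPKM with siRNA.1 (91.4 ± 6.94) and 83.39, 76.64 and 77.41 FPKM with siRNA.2 (79.1 ± 3.69). The knockdown libraries stood clear of the control libraries, and the lowest siRNA.1 library exceeded the highest siRNA.2 library by less than the spread within either condition. The increase was 3.86-fold (log2 fold change 1.95, standard error 0.046) and 3.38-fold (1.76, standard error 0.046). IFIT2 and IFIT3 share 65 and 94 exonic bases with LIPA on the opposite strand, and IFIT2 shares 524 exonic bases with the lncRNA ENSG00000232110 on its own strand, so some reads there could be assigned to either gene. LIPA did not pass the test with siRNA.1 (log2 fold change 0.12, edgeR adjusted p = 0.0755) or siRNA.2 (-0.018, edgeR adjusted p = 0.86), and ENSG00000232110 had at most 16 counts in a library.

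IFIT5 was the IFIT gene with the smallest change. IFIT5 (ENSG00000152778, chromosome 10, 89414568 to 89421605, plus strand) encodes a protein that acts without the other IFITs and binds RNA with a bare triphosphate end. It was at 14.97, 16.52 and 16.23 FPKM with control siRNA (15.9 ± 0.824, SD, n = 3), at 30.94, 33.12 and 36.12 FPKM with siRNA.1 (33.4 ± 2.6) and at 35.54, 32.83 and 32.20 FPKM with siRNA.2 (33.5 ± 1.77). Both knockdown conditions were above the control libraries and overlapped each other. The increase was 2.06-fold with siRNA.1 (log2 fold change 1.04, standard error 0.055, edgeR adjusted p = 3.55e-77) and 2.09-fold with siRNA.2 (1.06, standard error 0.055, edgeR adjusted p = 1.61e-81).

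IFITM3 was the most abundant of the 7 transcripts with control siRNA. IFITM3 (ENSG00000142089, chromosome 11, 319676 to 329475, minus strand) encodes the member that guards late endosomes and lysosomes against influenza viruses, among others. It was at 156.71, 150.91 and 151.30 FPKM with control siRNA, at 285.57, 275.47 and 282.59 FPKM with siRNA.1 and at 246.14, 258.01 and 254.30 FPKM with siRNA.2. The bands were again separate, at means of 153 ± 3.24, 281 ± 5.19 and 253 ± 6.07 FPKM (SD, n = 3). The increase was 1.80-fold with siRNA.1 (log2 fold change 0.85, standard error 0.038, edgeR adjusted p = 3.98e-110) and 1.64-fold with siRNA.2 (0.71, standard error 0.038, edgeR adjusted p = 6.17e-78).

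IFITM1 (ENSG00000185885, chromosome 11, 310041 to 315272, plus strand), whose protein resides mainly at the plasma membrane, rose most among the IFITM genes. It was at 75.33, 76.36 and 62.64 FPKM with control siRNA (71.4 ± 7.64, SD, n = 3), at 267.40, 247.13 and 251.62 FPKM with siRNA.1 (255 ± 10.6) and at 233.72, 246.30 and 240.34 FPKM with siRNA.2 (240 ± 6.29). Control and knockdown libraries were far apart, whereas the highest siRNA.2 library came within 1 FPKM of the lowest siRNA.1 library. The increase was 3.51-fold with siRNA.1 (log2 fold change 1.81, standard error 0.045) and 3.34-fold with siRNA.2 (1.74, standard error 0.045). For IFIT2, IFIT3 and IFITM1 edgeR likewise returned adjusted p-values of 0 in both comparisons, except for IFIT2 with siRNA.2 (2.50e-311), and the largest value under any alternative was 9.43e-07, for IFITM1 with siRNA.2.

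IFITM2 (ENSG00000185201, chromosome 11, 303655 to 309397, plus strand), an endosomal member like IFITM3, was the rarest of the 7 and the least precise. It had 145, 95 and 133 counts with control siRNA, 254, 244 and 190 with siRNA.1 and 291, 226 and 269 with siRNA.2. In FPKM these were 6.27, 4.04 and 4.93, then 9.49, 10.53 and 7.22, then 9.75, 7.81 and 7.91. The lowest siRNA.1 library was close to the highest control library, and the coefficient of variation of the control libraries was 22.1%, the largest of the 7 genes. The increase was 1.75-fold with siRNA.1 (log2 fold change 0.81, standard error 0.14, edgeR adjusted p = 8.90e-08) and 1.66-fold with siRNA.2 (0.73, standard error 0.14, edgeR adjusted p = 1.29e-06). The 3 IFITM genes are near-identical copies in much of their coding sequence, and how reads that match several of them were counted is not given in the sources used here, so the values of single IFITM genes are uncertain. Their summed counts had a log2 fold change of 1.11 with siRNA.1 and 1.00 with siRNA.2. IFITM1 also shares 351 exonic bases with ENSG00000288681 on its own strand and 176 with the lncRNA ENSG00000254910 on the opposite strand. IFITM3 shares 405 with the lncRNA ENSG00000255328 on the opposite strand. These overlapping genes had at most 0, 7 and 1 counts in a library, and how reads in the shared bases were assigned is not known here.

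**Figure D2:**
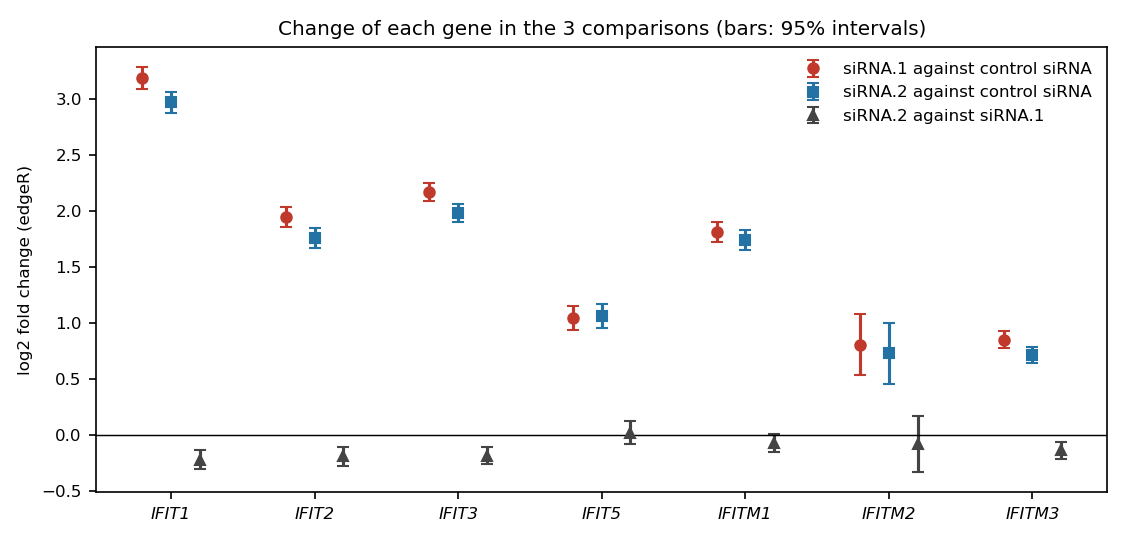
Log2 fold change of each gene from edgeR (vertical axis) in the 3 comparisons, with bars for the 95% interval. The changes against control siRNA run from 0.71 for IFITM3 to 3.19 for IFIT1, and those between the siRNAs from -0.22 for IFIT1 to 0.02 for IFIT5.

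Because the genes rose by different factors, the make-up of both families shifted. Summed FPKM of the IFIT genes were 78.9 ± 2.17 in control cells, 360 ± 12.1 after siRNA.1 and 315 ± 7.20 after siRNA.2 (SD, n = 3), and those of the IFITM genes were 229 ± 9.85, 546 ± 15.1 and 501 ± 11.3. IFIT1 supplied 14.3% ± 1.14 of the IFIT sum in control cells, 29.2% ± 0.707 after siRNA.1 and 28.3% ± 0.271 after siRNA.2. IFIT5 went the other way, from 20.2% ± 1.06 to 9.27% ± 0.693 and 10.6% ± 0.332. The share of IFIT3 stayed within its spread at 36.1% ± 1.25, 36.2% ± 0.712 and 35.97% ± 0.801, and IFIT2 supplied 29.5% ± 2.12, 25.3% ± 1.10 and 25.1% ± 0.744. The ratio of IFIT1 to IFIT5 was 0.709 ± 0.0313, 3.16 ± 0.275 and 2.67 ± 0.107 in the same order, whereas that of IFIT3 to IFIT2 was 1.23 ± 0.112, 1.43 ± 0.0884 and 1.43 ± 0.0745. In the IFITM family, the share of IFITM1 was 31.1% ± 2.24, 46.8% ± 0.654 and 47.9% ± 0.187, and that of IFITM3 was 66.7% ± 2.11, 51.5% ± 0.719 and 50.4% ± 0.168. IFITM2 never exceeded 2.63% of the sum in any library. These shares are descriptions without a test. Based on counts in place of FPKM, IFITM3 supplied 77.5%, 64.6% and 63.5%, because its exonic length of 2844 bases is larger than the 1666 bases of IFITM1 and the 1507 bases of IFITM2.

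**Figure D3:**
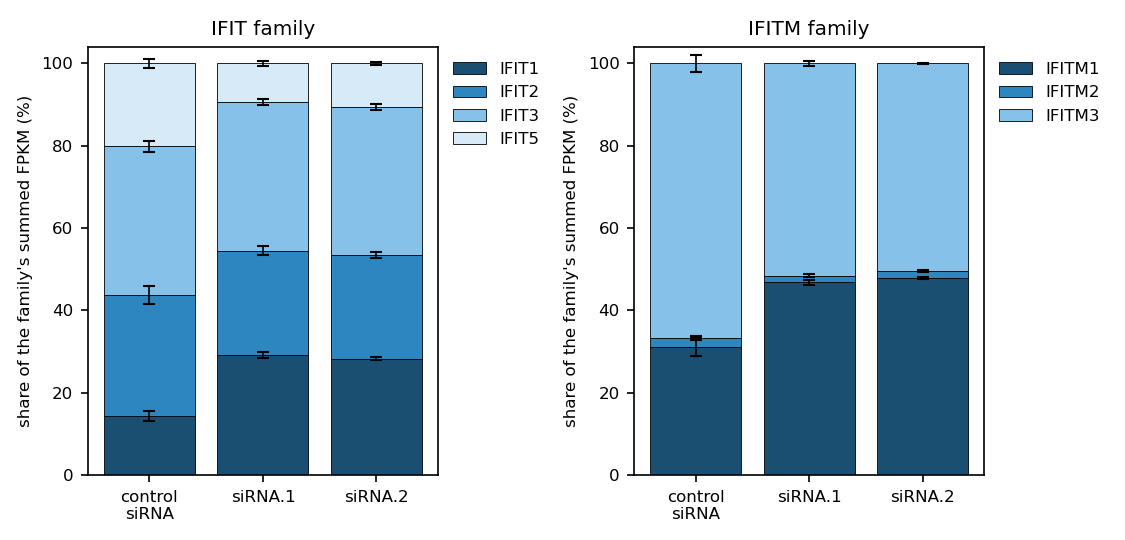
Share of each gene in the summed FPKM of its family in percent (vertical axis), as the mean of 3 libraries per condition with the SD. IFIT1 and IFITM1 take larger shares with both siRNAs than with control siRNA, and IFIT5 and IFITM3 smaller ones.

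The order of the levels changed with them. With control siRNA the order in FPKM was IFITM3, IFITM1, IFIT3, IFIT2, IFIT5, IFIT1 and IFITM2, and no neighbours in this order overlapped between libraries. With both siRNAs IFIT1 moved from the sixth place to the fourth, above IFIT2 and IFIT5. With siRNA.2 the ranges of IFITM3 and IFITM1 overlapped, while the other neighbours stayed apart. Among all genes above 0 FPKM, IFIT1 exceeded 85.4% in control cells, 98.9% after siRNA.1 and 98.6% after siRNA.2. The control cells held much IFITM3, which was higher than 99.3% of genes with control siRNA and 99.7% with either PARylator siRNA. This was not particular to IFITM3. In control cells IFITM1 exceeded 98.3% of genes, IFIT3 94.5%, IFIT2 93.0%, IFIT5 89.4% and IFITM2 74.5%.

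Compared directly, the siRNAs differed by little. In siRNA.2 against siRNA.1, 4 of the 7 genes fell and none rose, against 6.07% of all genes tested that fell and 6.1% that rose. IFIT1 had a log2 fold change of -0.22 between them (standard error 0.042, edgeR adjusted p = 6.69e-06), IFIT3 of -0.19 (standard error 0.039, edgeR adjusted p = 6.31e-05), and IFIT2 of -0.19 (standard error 0.043, edgeR adjusted p = 0.000224). IFITM3 followed at -0.14 (standard error 0.037, edgeR adjusted p = 0.00336). The call on IFIT2 was lost with limma (adjusted p between 0.101 and 0.104), and that on IFITM3 without siRNA.2 replicate 1 (log2 fold change -0.11, edgeR adjusted p = 0.0506). For the other 3 genes the difference did not pass the test, with 95% intervals from -0.08 to 0.12 for IFIT5, from -0.16 to 0.01 for IFITM1 and from -0.33 to 0.17 for IFITM2. In FPKM, 5 of the 7 genes had every siRNA.2 library below every siRNA.1 library, a pattern seen in 13.1% of all genes. After TMM scaling between libraries it held for 4, since IFITM1 then overlapped.

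The interferon genes, whose products induce both families, were measured at low counts. Of 9 interferon genes listed, 6 passed the filter and 4 rose with each siRNA (IFNB1, IFNL1, IFNL2 and IFNL3), with none lower. Over all genes tested, 15.0% rose with siRNA.1 and 15.8% with siRNA.2. IFNE and IFNK were tested and passed with neither siRNA. IFNE, at 34, 39 and 15 counts with control siRNA, had log2 fold changes of 0.18 (edgeR adjusted p = 0.749) and -0.08 (edgeR adjusted p = 0.905). IFNK had 1.59 (edgeR adjusted p = 0.278) and 0.81 (edgeR adjusted p = 0.646). IFNL2 averaged 0.02 FPKM with control siRNA, so it passed the filter only through the knockdown libraries, which favours a rise. IFNB1, a type I interferon that most cell types can make, gave 2, 1 and 1 counts with control siRNA, 4, 11 and 13 with siRNA.1 and 14, 21 and 28 with siRNA.2. IFNL1, a type III interferon of epithelia, had 8, 3 and 8 counts, then 32, 53 and 78, then 62, 66 and 80, a log2 fold change of 3.01 with siRNA.1 (edgeR adjusted p = 2.35e-14) and 3.08 with siRNA.2 (edgeR adjusted p = 1.51e-15). IFNL2 and IFNL3 are near-identical copies whose reads counting could have split. IFNL2 had 0, 0 and 1 counts with control siRNA, 22, 32 and 56 with siRNA.1 and 41, 36 and 42 with siRNA.2, and IFNL3 had 5, 3 and 0, then 41, 48 and 37, then 85, 49 and 45. All knockdown libraries were above all control libraries for the 4 genes that rose. Over all genes this pattern was seen in 20.7% with siRNA.1 and in 21.1% with siRNA.2. Genes picked by a test of this same difference tend to show it. The 6 tested interferons had median log2 fold changes of 2.82 (siRNA.1) and 3.30 (siRNA.2), or 2.30 and 2.78 with IFNB1 and IFNL2 set against 3 counts in each control library. Interferon alpha genes IFNA1 and IFNA2 and interferon gamma (IFNG) did not pass the filter, and none exceeded 2 counts in a library.

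The receptors moved little. Of 6 receptor genes, 1 rose and 2 fell with each siRNA, and the medians were -0.04 and -0.15. Over all genes tested, 15.0% rose and 15.2% fell with siRNA.1, and 15.8% rose and 15.1% fell with siRNA.2. The same shares stand beside the counts of every list that follows. IFNGR1, a chain of the interferon gamma receptor, had log2 fold changes of 0.16 and 0.16, and IL10RB, a chain of the type III receptor, of -0.42 and -0.58. IFNGR2 had -0.20 with siRNA.1 (edgeR adjusted p = 0.00759) and -0.15 with siRNA.2 (edgeR adjusted p = 0.0622), and IFNAR1, of the type I receptor, -0.09 (edgeR adjusted p = 0.287) and -0.15 (edgeR adjusted p = 0.0346). With limma none of the receptor genes passed in either comparison.

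Sensors of nucleic acid and the signal transducers moved in part. Of 12 sensors and adaptors, 5 rose and 1 fell with each siRNA, but the 5 were not all the same genes. TLR3 rose only with siRNA.1 (log2 fold change 0.31, edgeR adjusted p = 0.0286, against -0.07, edgeR adjusted p = 0.739, with siRNA.2). CGAS rose only with siRNA.2 (0.23, edgeR adjusted p = 0.00209, against 0.03, edgeR adjusted p = 0.773, with siRNA.1). In siRNA.2 against siRNA.1, TLR3 (-0.37) and STING1 (-0.32) were lower and CGAS (0.19) was higher. IFIH1 (MDA5), a sensor of double-stranded RNA, had a log2 fold change of 1.74 with siRNA.1 and 1.77 with siRNA.2, the DNA sensor IFI16 of 1.09 and 0.98, and RIGI, a sensor of uncapped RNA, of 1.13 and 1.32. MAVS, the mitochondrial adaptor of IFIH1 and RIGI, was the member that fell (-0.41, edgeR adjusted p = 2.48e-15, and -0.47, edgeR adjusted p = 2.27e-20). Among the signal transducers, STAT2 rose by log2 fold changes of 0.33 and 0.22, while the kinase TYK2 (-0.42 and -0.47) and the transcription factor IRF1 (-0.31 and -0.24) fell. IRF9, the DNA-binding partner of STAT2, had 0.50 (edgeR adjusted p = 2.71e-05) and 0.22 (edgeR adjusted p = 0.11), and JAK1 had 0.09 (edgeR adjusted p = 0.155) and -0.12 (edgeR adjusted p = 0.0497). Of 4 negative regulators, 1 rose and 2 fell with each siRNA. USP18, which shuts down the type I receptor and is itself interferon-induced, had log2 fold changes of 2.34 and 2.02, whereas SOCS3 fell by 0.22 and 0.35. SOCS1 had -0.50 (edgeR adjusted p = 0.235) and -0.90 (edgeR adjusted p = 0.0156), and IRF2 had -0.23 (edgeR adjusted p = 0.0388) and -0.02 (edgeR adjusted p = 0.89).

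The other interferon-induced antiviral genes accompanied the 7 genes. Of 18 listed, 18 rose with each siRNA and none fell, with medians of 1.90 and 1.82. MX1 and MX2, dynamin-like GTPases, had log2 fold changes of 2.28 and 2.88 with siRNA.1 and 2.22 and 2.68 with siRNA.2. OAS1 and OAS2, which make the activator of RNase L, had 2.37 and 1.92 with siRNA.1 and 2.16 and 1.78 with siRNA.2. IFI6 (3.155 and 2.91), IFI44L (2.48 and 2.46) and ISG15 (2.31 and 2.08) had the same edgeR adjusted p of 0 as these 4 genes with both siRNAs. The range ran from EIF2AK2, the kinase PKR (0.17 and 0.24), to RSAD2, the enzyme viperin (3.66 and 3.42), so that IFIT1 lay near the top of this range and IFITM2 and IFITM3 near its lower end. Between the siRNAs 9 of the 18 were lower and 1, IFI44, was higher with siRNA.2 (0.15, edgeR adjusted p = 0.0128), against 6.07% and 6.1% of all genes tested. The calls on OAS1, ISG15 and IFI27 held under every alternative run and without any single library, while those on MX2, OAS2, OAS3, OASL, RSAD2, IFI6 and IFI44 were lost under at least 1 alternative.

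Genes that work with the IFIT and IFITM proteins did not move as a group. Of 5 genes of RNA capping and cap methylation, CMTR1 rose (log2 fold changes 0.50 and 0.43) and CMTR2 fell (-0.44 and -0.22), and RAMAC had 0.01 (edgeR adjusted p = 0.958) and -0.40 (edgeR adjusted p = 0.000192). RNMT had 0.04 and -0.04 and RNGTT 0.01 and 0.16, none of which passed. Of 5 IFIT partners, 0 rose and 1 fell with siRNA.1, and 1 rose and 2 fell with siRNA.2. The 1 in common was MAVS, whose values are given above. EIF3C and EIF3E, subunits of the initiation factor that IFIT1 and IFIT2 bind, had log2 fold changes of 0.11 and -0.09 with siRNA.1, which did not pass, and of 0.20 (edgeR adjusted p = 0.00571) and 0.04 with siRNA.2. TOMM70, to which IFIT3 binds on mitochondria, had -0.02 with siRNA.1 and -0.14 with siRNA.2 (edgeR adjusted p = 0.0159), and STING1 had 0.17 and -0.14, neither of which passed. The medians were 0.01 and -0.04 for the capping genes and -0.02 and -0.14 for the partners. For these lists and those of the next paragraph, the shares of all genes were 15.0% higher and 15.2% lower with siRNA.1. With siRNA.2 they were 15.8% and 15.1%.

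Among 6 partners and modifying enzymes of IFITM proteins, 3 rose and 2 fell with siRNA.1, and 3 rose and 1 fell with siRNA.2, with medians of 0.09 and 0.11. The methyltransferase SETD7 rose by 0.79 and 0.58 and the ubiquitin ligase NEDD4, which marks IFITM proteins for degradation, by 0.52 and 0.26. The tetraspanin CD81 rose by 0.26 and 0.26, and the palmitoyltransferase ZDHHC20 fell by 0.42 and 0.45. VAPA had -0.22 (edgeR adjusted p = 0.00299) and -0.10 (edgeR adjusted p = 0.251). Of 8 markers of the endosomes and lysosomes in which IFITM2 and IFITM3 reside, 4 rose and 2 fell with siRNA.1, and 2 rose and 2 fell with siRNA.2, with medians of 0.12 and 0.02. CTSL, a protease that primes viral entry proteins, rose by 0.52 and 0.58 and the transferrin receptor TFRC by 0.42 and 0.40, while LAMP2 (-0.41 and -0.44) and CTSB (-0.24 and -0.44) fell.

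Several of the smaller calls on these lists depended on the tool or on 1 library. With siRNA.1, IL10RB, IFNGR1, IFNGR2, TLR3, SOCS3 and IRF2 lost their call under at least 1 alternative or without at least 1 library. With siRNA.2 this held for IL10RB, IFNGR1, IFNAR1, JAK1, SOCS1, CMTR2, EIF3C and TOMM70. A call with 1 siRNA only is not a difference between the siRNAs. In siRNA.2 against siRNA.1, IFNGR2, IFNAR1, IRF9, SOCS1, IRF2, EIF3C, TOMM70 and VAPA did not pass (edgeR adjusted p from 0.0565 to 0.704). TLR3, CGAS, JAK1 and RAMAC passed that test.

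**Figure D4:**
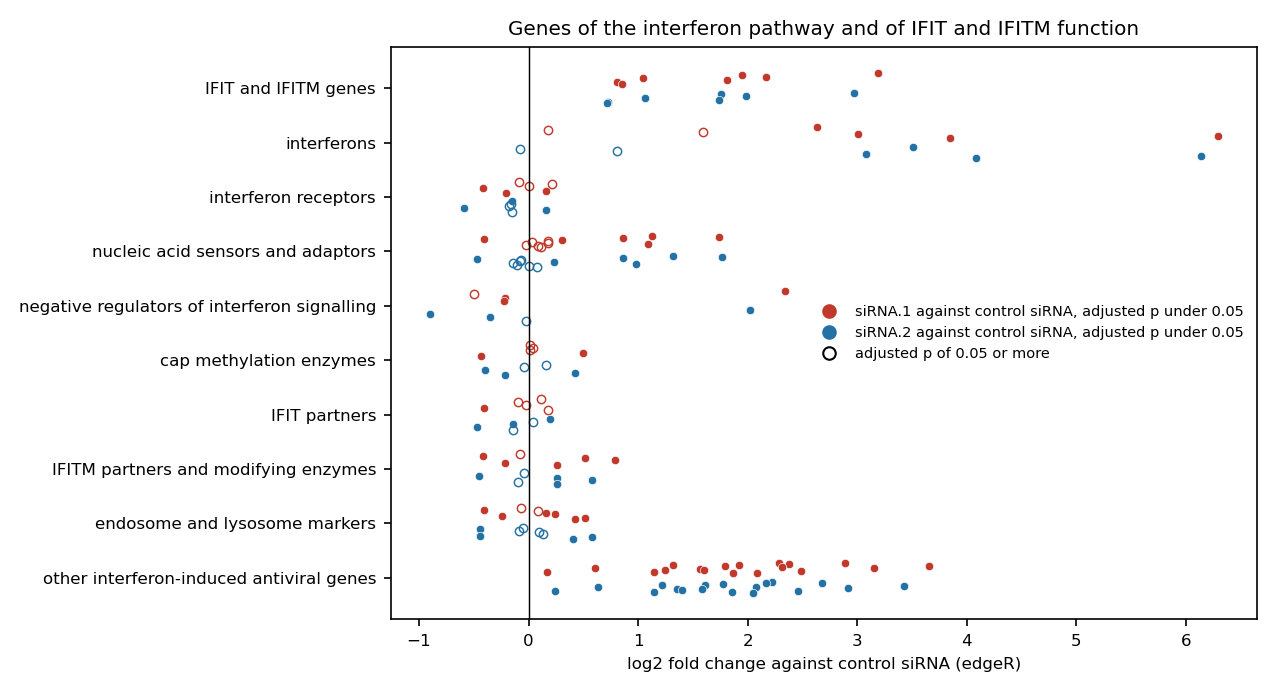
Log2 fold change against control siRNA from edgeR (horizontal axis) for the 7 genes and for each tested gene of 9 lists, with siRNA.1 in red and siRNA.2 in blue, filled where the adjusted p was under 0.05. The 7 genes and the 18 other antiviral genes lie to the right of 0 with both siRNAs, the receptors lie between -0.58 and 0.22, the IFITM partners and modifying enzymes between -0.45 and 0.79, and the values of IFNL2 and IFNB1 rest on 3 counts or fewer in each control library.

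Genes beside the families were examined in the same way. Of all genes tested, 15.0% rose and 15.2% fell with siRNA.1, and 15.8% rose and 15.1% fell with siRNA.2. Of the tested genes within 200 kb of an IFIT gene, 6 in number, 1 rose with siRNA.1 (IFIT1B) and none passed in either direction with siRNA.2. IFIT1B averaged 0.0533 FPKM with control siRNA, so it passed the filter only through the knockdown libraries, which favours a rise. Of these 6, LIPA and PANK1 (-0.09 and 0.04) were the only 2 with a mean of at least 1 FPKM. CH25H (log2 fold changes 0.75 and 1.15), SLC16A12 (-0.89 and -0.21) and ENSG00000232110 (-0.26 and 0.06) did not pass. Near the IFITM genes 19 genes were tested, of which 2 rose and 1 fell with each siRNA. B4GALNT4, a glycosyltransferase gene 40024 bases from the nearest IFITM gene, rose by 0.67 and 0.75, PTDSS2, of phosphatidylserine synthesis, by 0.28 and 0.27, and ANO9, a member of the anoctamin family, fell by 0.50 and 0.62. PGGHG, at 7548 bases, had 0.18 (edgeR adjusted p = 0.182) and 0.14 (edgeR adjusted p = 0.311). RNH1, SIRT3, BET1L, RIC8A, PKP3, SIGIRR, PSMD13, LINC01001 and 7 genes without a symbol (ENSG00000251661, ENSG00000254739, ENSG00000254910, ENSG00000255026, ENSG00000255237, ENSG00000277290 and ENSG00000288033) did not pass either. The calls on PTDSS2 were lost without some single libraries (largest edgeR adjusted p 0.141 with siRNA.1 and 0.158 with siRNA.2).

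**Figure D5:**
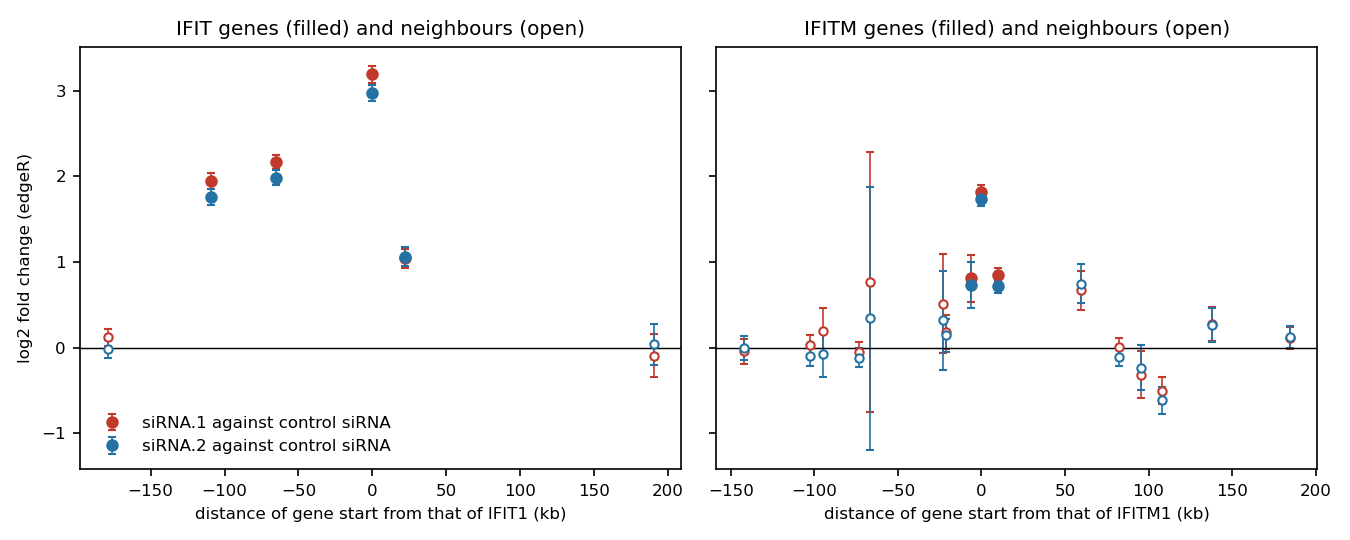
Log2 fold change against control siRNA (vertical axis, bars for the 95% interval) by the distance of each gene's start from that of IFIT1 (left) or IFITM1 (right) in kb, for the 7 genes (filled) and for neighbours with a mean of at least 1 FPKM (open), with siRNA.1 in red and siRNA.2 in blue. The filled points lie between 0.71 and 3.19, and of the open points that passed the test the highest is at 0.75.

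The remaining rows of both families were nearly silent. The table held 17 other genes whose symbol begins with IFIT, 14 of them pseudogenes, of which none exceeded 20 counts over the 9 libraries. IFIT1B, a paralog that lies between IFIT3 and IFIT1, had 0, 4 and 1 counts with control siRNA, 28, 7 and 15 with siRNA.1 and 9, 8 and 11 with siRNA.2. All knockdown libraries were above all control libraries in counts, with the closest at 7 and 4 counts. In FPKM that pattern was seen in 20.7% of all genes with siRNA.1 and in 21.1% with siRNA.2. The log2 fold change of IFIT1B was 3.13 with siRNA.1 (standard error 0.81, edgeR adjusted p = 0.000686) and 2.06 with siRNA.2 (standard error 0.85, edgeR adjusted p = 0.0507). At this depth reads of IFIT1 placed on IFIT1B could not be separated from its own. IFIT1B passed the filter only through the knockdown libraries. IFITM5, the bone-restricted member, had 1 count in all, and IFITM10 had 4, 12 and 22 counts, then 6, 10 and 9, then 5, 2 and 1, and was below the filter.

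To find the genes with the most similar pattern, the log2 CPM of 12525 other genes at a mean of 1 FPKM or more were correlated over the 9 libraries with the mean profile of each family. The coefficients mostly reflect the difference between control and knockdown libraries that these genes share, and they are given as a description. Most like the IFIT genes were OAS1 (Pearson's r = 0.9992), OAS2 (0.9991), IFI16 (0.9989), RSAD2 (0.9986) and UBE2L6 (0.9985), of which UBE2L6 encodes the conjugating enzyme for the ubiquitin-like protein ISG15. UBE2L6 averaged 25.3, 76.5 and 71.8 FPKM in control, siRNA.1 and siRNA.2 libraries. Most like the IFITM genes were FBP1 (0.9969), OAS3 (0.9947), RSAD2 (0.9938), TRIM22 (0.9938) and CCL3 (0.9935). FBP1, which encodes the gluconeogenic enzyme fructose bisphosphatase, averaged 0.357, 2.59 and 2.07 FPKM, and the chemokine gene CCL3 averaged 0.617, 3.39 and 2.84 FPKM. Ranked by Spearman's rho in place of Pearson's r, none of those genes were among the 5 most alike of either family. Their places then lay between 28 and 154 for IFIT and between 32 and 723 for IFITM. On log2(FPKM + 1) with Pearson's r they held places 1 to 5 for IFIT and places between 1 and 14 for IFITM.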

How the data were processed

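RNA-seq libraries of TE13 cells (3 per condition) were grouped by their labels. As the study describes it, polyadenylated RNA was sequenced on an Illumina NovaSeq instrument, and reads were aligned to GRCh38 by STAR and assigned to genes by featureCounts. Versions, strandedness and the handling of reads with several matches are not given in the sources used here. Per gene and library, the authors deposited an unscaled count and an FPKM value, which scales that count for exonic length and for the total on genes.

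Counts were scaled by TMM (factors 0.989 to 1.02) and compared by the quasi-likelihood test (R 4.3.3, edgeR 4.0.16) for 21397 genes whose mean reached 0.1 FPKM. The model held all 9 libraries and no covariate, and calls were made at a Benjamini-Hochberg adjusted p of 0.05. Standard errors were derived from each log2 fold change and its F statistic. On simulated data for siRNA.1 against control siRNA, with 200 of 21397 genes changed 2-fold, edgeR called 124 of them and 4 unchanged genes, and all 115 changed genes with a mean of at least 50 counts. The simulation gave every gene the same dispersion and changed far fewer genes than were called here. Its number of false calls therefore need not hold for these libraries. DESeq2 1.42.0 and limma 3.58.1 on log2(FPKM + 0.1) served as alternatives, besides other scalings, filters and pseudocounts, a replicate block and each library left out. The replicate numbers of the labels were not used as pairs.

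The 7 genes and all lists were chosen with earlier results of these data known. Named were the 7 genes, up to 4 genes of each list with the lowest adjusted p against control siRNA and any that moved against most of their list, tested genes within 200 kb, other genes whose symbol begins with IFIT, and the 5 genes most alike in pattern (r of log2 CPM, prior count 2). Genes tied at an adjusted p of 0 were taken in the order of the list. Some further list genes are named where the siRNAs differed or genes tied. Exon overlaps come from GENCODE 44 and promoters from RefSeq (GRCh38.p14). Precision is limited by 3 libraries per condition. Some results on signal transducers are not reported here.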

Additional observations from a re-analysis of the deposited data

Results flagged for a closer look

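The change of 4 of the 7 genes differed between the siRNAs by the test of the difference itself, siRNA.2 against siRNA.1 in edgeR. All 4 were lower with siRNA.2, against 6.07% of all genes tested that fell. The difference in log2 fold change was -0.22 for IFIT1 (95% interval -0.30 to -0.14), -0.19 for IFIT2 (-0.27 to -0.11), -0.19 for IFIT3 (-0.26 to -0.11) and -0.14 for IFITM3 (-0.21 to -0.06). For each of these 4 genes every siRNA.2 library was below every siRNA.1 library in FPKM, with the closest pair at IFIT2 (83.39 and 84.23 FPKM). That pattern was seen in 13.1% of all genes, and genes picked by a test of this same difference tend to show it. The calls on IFIT2 and IFITM3 did not hold under every alternative, as given below. Against control siRNA both siRNAs raised all 4 genes, by between 1.64-fold and 9.12-fold.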

How the results depend on the processing

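With each siRNA against control siRNA, 7 of 7 genes stayed called and higher under every alternative that was run. Between the siRNAs, IFIT2 was no longer called with limma on log2(FPKM + 0.1), log2(FPKM + 1) and log2(FPKM + 0.01), at log2 fold changes of -0.20, -0.20 and -0.21, and IFITM3 was not called without siRNA.2 replicate 1 (leaving out 1 library each gave -0.16 to -0.11). The cause was not tested. Summing the IFITM counts gave log2 fold changes of 1.11, 1.00 and -0.11 in the 3 comparisons, where the medians of the 3 genes were 0.85, 0.73 and -0.08. List genes called between the siRNAs numbered 22 with edgeR and 12, 14 and 12 with limma at the 3 pseudocounts. Shares of counts in place of FPKM, which do not correct for length, were, in the order control siRNA, siRNA.1 and siRNA.2, 39.3%, 39.2% and 39.0% for IFIT3, 21.2%, 34.3% and 35.3% for IFITM1, 1.36%, 1.11% and 1.13% for IFITM2 and 77.5%, 64.6% and 63.5% for IFITM3, all of which moved by more than their SD from the shares of FPKM. Of the other 3 genes, the shares that did so were 23.4% and 23.2% for IFIT2 with siRNA.1 and siRNA.2, 19.0% and 9.92% for IFIT5 with control siRNA and siRNA.2, and 27.9% for IFIT1 with siRNA.2. Of the 5 genes most alike in pattern, 0 were shared with Spearman's rho for either family. On log2(FPKM + 1) the 5 of IFIT held places 1 to 5, and those of IFITM places between 1 and 14.

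The same replicate numbers occur in all conditions, but libraries with the same number did not deviate together (correlations from -0.12 to 0.06 over 9 pairs, with the own number highest in 6 of 18 cases). With the replicate number as a block, 7, 7 and 4 of the 7 genes were called in the 3 comparisons, as without it. Depth limited IFITM2, IFIT1B, the interferons and LINC00885.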
